A study of Drosophila melanogaster with 4 samples.

Results

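The subject here is 281 regions of RNA polymerase II enrichment that lay alone, with at least 20 kb free of any other enriched region on each side. They were chosen by the gaps between regions in the list that the authors made for the whole series, within chromosome arms 2L, 3L and 3R. Those arms held 2958 of the 5288 enriched regions of that list, and the other 2677 regions on the 3 arms serve for comparison. Of the 2952 regions with a neighbour on both sides, 9.52% were isolated. The first and last region of each arm, 6 in all, count among the others.

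The regions come from ChIP-seq, in which chromatin bound by an antibody is recovered and its DNA sequenced. The cells were Kc167, a line derived from late-stage Drosophila melanogaster embryos, with genotype se/e and labelled female. The antibody ab5408 targets the YSPTSPS heptapeptide that is repeated at the carboxy terminus of the largest polymerase subunit. The series has 2 ChIP samples and 2 input samples, all from the same untreated line, and region lists of both ChIP replicates and of the series were used. Whether the replicates were separate cultures is not given in the labels, so the spread between them may be technical. Each region carries 1 score given by the authors, positive for enrichment, on a scale that the sources used here do not give. Scores are therefore compared as differences, never as folds.

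RNA polymerase II transcribes protein-coding genes and many small nuclear RNAs. In Drosophila, much of it sits just downstream of promoters, where it pauses before productive elongation, as first described at heat-shock genes. ChIP with an antibody against the carboxy-terminal repeat gives a compact signal over such promoters and a broad one over the bodies of heavily transcribed genes. Coordinates follow FlyBase release 5. Without a genome or annotation of that release, regions are named by position, no gene is assigned to them, and their sequence is not shown.

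All values that follow describe these lists. The rule, the scores, the widths and the replicate lists rest on the same ChIP libraries, so no difference between isolated and other regions was tested, and intervals on shares (exact, 95%) cover counting error only. Depth is unknown, because the lists hold no read counts.

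The empty stretches were long. The nearer neighbour of an isolated region was a median of 34.5 kb away (quartiles 26.1 and 49.4 kb), and the farther one a median of 70.5 kb (quartiles 48.7 and 119.5 kb). For the other regions the nearer neighbour was a median of 1.95 kb away, a value that the rule itself sets apart. The 2 gaps of an isolated region differed to varying degrees: the larger exceeded the smaller by a median factor of 1.89 (quartiles 1.34 and 2.88) and by up to 14.7. The rule left 470 gaps beside isolated regions, which together made up 31.3 Mb or 41.5% of the 75.5 Mb of the 3 arms. All gaps of 20 kb or more numbered 792 and took up 68.0% of the arms, and 322 of them had no isolated region at either end.

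**Figure D1:**
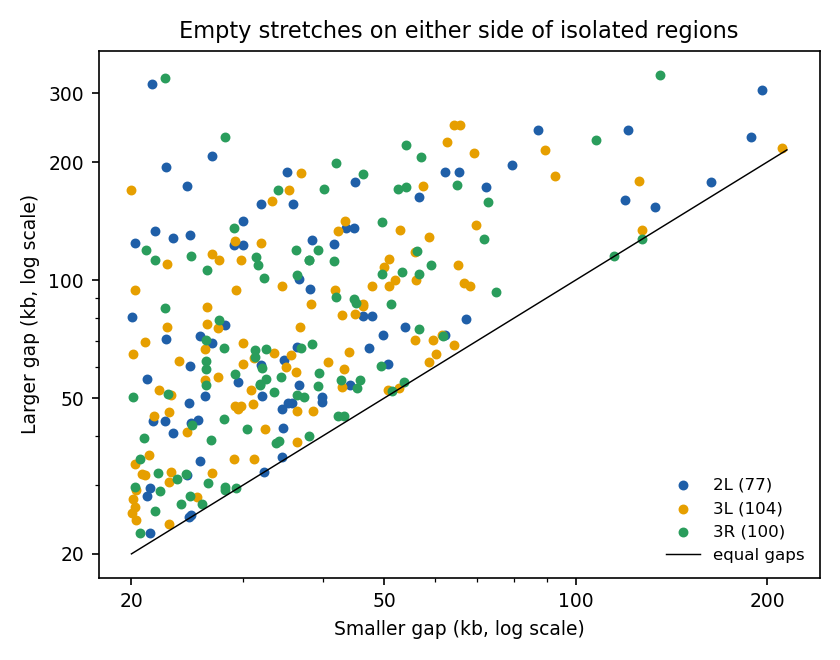
Smaller gap (horizontal axis, kb, log scale) against larger gap (vertical axis, kb, log scale) of each of the 281 isolated regions, coloured by arm, with a line where both gaps are equal. Smaller gaps start at 20.003 kb and reach 211.2 kb. No point can lie below the line, because the vertical axis shows the larger gap. Most points lie well above the line on all 3 arms.

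The most isolated region lay on 3L from 18390874 to 18392469, with 211.2 kb free on the nearer side and 216.8 kb on the other. It was weak: its score was 0.08 in the series list, 0.36 in replicate 1 and 0.39 in replicate 2. The next 2 were compact and strong. On 2L from 14688170 to 14690395, a region 2226 bp wide had 196.3 kb free and scored 2.65 in replicate 1 and 2.505 in replicate 2. On 2L from 1419273 to 1421546, a region of 2274 bp had 188.6 kb free and scored 3.05 and 2.74. The remaining 2 of the 5 were wider. The region on 2L from 15498086 to 15505605 (7520 bp, 163.1 kb free) scored 1.69 and 1.64, and that on 3R from 1824554 to 1835345 (10792 bp, 135.5 kb free) scored 2.32 and 2.39. Great isolation thus occurred with weak, with compact strong and with broad regions.

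The threshold cut through similar regions. The 6 members with the smallest gap, from 20.003 to 20.136 kb, had scores from 0.32 to 2.48 and widths from 1032 to 6472 bp in the series list. The 5 regions just outside, with 19.737 to 19.779 kb, had scores from 0.65 to 2.62 and widths from 2067 to 8021 bp. Both sets hold weak and strong, compact and wide regions.

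Isolated regions had higher scores and smaller widths at the median than the other regions. Their median score in the series list was 1.52 (quartiles 0.74 and 2.37), against 1.25 (0.57 and 1.87). The median width was 2263 bp (quartiles 2065 and 3450) against 2878 bp (2149 and 5115). When the gap rule was applied to each replicate's own list, the isolated regions had a median score of 1.51 in replicate 1 and 1.55 in replicate 2 (1.53 ± 0.03, SD, n = 2). The other regions there had 1.34 and 1.36 (1.35 ± 0.01). Median widths of isolated regions were 2263 and 2276 bp, and those of the other regions 2793 and 2834 bp.

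Strong regions made up a larger share of the isolated set. Of the isolated regions, 105 (37.4%) fell in the highest quartile of scores on the 3 arms, above 1.92, against 635 of the others (23.7%). Scores above 3 were found in 23 isolated regions (8.19%, interval 5.26 to 12.03) and in 87 others (3.25%, interval 2.61 to 3.99). The lowest quartile, up to 0.60, held 56 isolated regions (19.9%) and 684 others (25.6%). The isolated set therefore spans scores from 0.0041 to 4.14, with relatively more in the highest quartile. The highest score among the other regions was 4.745, in a region found in neither replicate. The highest replicate scores matched to other regions were 4.27 in replicate 1 and 4.30 in replicate 2.

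Isolated regions were narrower at the median in every score quartile but the lowest, where the widths were alike. In the highest quartile of scores, 65 of 105 isolated regions (61.9%, interval 51.9 to 71.2) were at most 2500 bp wide, against 166 of 635 others (26.1%, interval 22.8 to 29.7). The median width in that quartile was 2346 bp for isolated and 3977 bp for other regions. From 1.26 to 1.92 the medians were 3610 bp for isolated and 4359 bp for other regions. From 0.60 to 1.26 they were 2139 and 2992.5 bp. In the lowest quartile the medians were 1938 and 1927 bp. Over all scores, 127 isolated regions (45.2%) measured more than 2000 and up to 2500 bp, against 669 others (24.99%). Within this width class the median score was 1.74 for isolated and 1.02 for other regions.

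**Figure D2:**
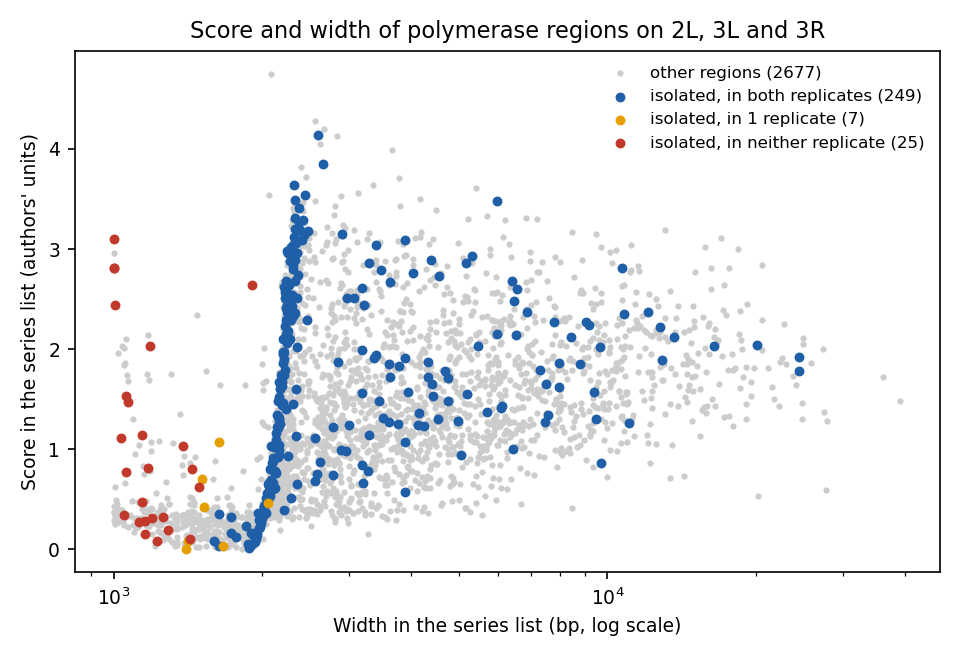
Width (horizontal axis, bp, log scale) against score in the authors' units (vertical axis) for enriched regions of the series list on 2L, 3L and 3R. Grey points are the 2677 other regions and coloured points the 281 isolated ones by replicate support; many isolated regions form a steep band between 1800 and 2600 bp in which width rises with score, and the red points, found in neither replicate, measure 1001 to 1905 bp.

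Many isolated regions lay on a narrow band in which width followed score. Between 1800 and 2600 bp there were 151 isolated regions (53.7%, interval 47.7 to 59.7) and 862 others (32.2%, interval 30.4 to 34.0). These bounds were set around the band after the values had been plotted. A higher correlation within them than over all 281 is therefore no support for the band. Among the 151, the Spearman correlation of score and width was 0.83, against 0.54 over all 281; among the 862 others it was 0.71. Score and width come from the same call, and regions are not independent replicates. In the band, isolated regions with scores under 0.5 had a median width of 1979 bp, those from 1 to 1.5 one of 2156 bp, those from 2 to 2.5 one of 2265 bp, and those of 3 or more one of 2370 bp (quartiles 2324 and 2417).

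The same bounds were applied to both replicate lists, which rest on the same libraries and so give no independent support. In replicate 1 the band held 158 of 277 isolated regions, with a correlation of 0.88. In replicate 2 the band held 165 of 281, with 0.85. At scores of 3 or more, the isolated regions in the band had a median width of 2345 bp in replicate 1 and 2358 bp in replicate 2. The other regions in the band with such scores had 2369 and 2339 bp; the bounds of the band limit how far these medians could differ. How much of this width belongs to the polymerase and how much to fragment length or to the calling method was not tested.

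The 10 highest-scoring isolated regions, ranked by mean score over both replicates, were with 1 exception compact. The first lay on 3R from 19683893 to 19686484 (2592 bp) and scored 4.14 in each replicate. Its neighbours were 29.1 and 28.0 kb away. The second, on 3L from 1462492 to 1465144 (2653 bp), scored 3.89 in replicate 1 and 3.83 in replicate 2 (3.86 ± 0.05, SD, n = 2). The third, on 3L from 15227627 to 15229949 (2323 bp), scored 3.60 and 3.68 (3.64 ± 0.06) and had at least 59.6 kb free on either side.

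Those that followed had mean scores between 3.27 and 3.54. On 2L from 900299 to 902733 the mean was 3.54 ± 0.04, with 173.8 kb free on the farther side. On 3L from 13220660 to 13222991 it was 3.50 ± 0.00099, and this region combined a high score with 125.6 kb free on the nearer side. The exception in width was the region on 3L from 7148845 to 7154824, 5980 bp wide, with a mean of 3.50 ± 0.04. Lower in the order came 3L from 21374475 to 21376844 (3.42 ± 0.05), 2L from 1883582 to 1885905 (3.32 ± 0.03), 2L from 7494975 to 7497391 (3.31 ± 0.10) and 3R from 11490764 to 11493135 (3.27 ± 0.04). Several neighbours in this order differ by less than the SD of their own scores. All of these apart from the region of 5980 bp measured 2323 to 2653 bp.

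Broad isolated regions existed but were few. More than 10 kb were spanned by 11 isolated regions (3.91%, interval 1.97 to 6.90) and by 222 others (8.29%, interval 7.28 to 9.40). The widest lay on 3R from 24344216 to 24368716 (24.5 kb), with 54.0 kb free on the nearer side. It matched 1 region in replicate 1 and 2 in replicate 2, and its score in the series list was 1.78. On 3R from 4164865 to 4189274 a region of 24.4 kb scored 1.92 in the series list, and on 3R from 16880001 to 16900064 one of 20.1 kb scored 2.04. Each of these was 2 regions in replicate 1 and 1 in replicate 2. The 2 widest on 3L were single regions in both replicates. The one from 13837954 to 13854365 (16.4 kb) scored 2.00 and 2.06, and the one from 23084243 to 23097873 (13.6 kb) scored 2.11 and 2.15. All 5 scored below the 10 leaders, but those had been picked for high scores, so this difference says nothing about width. The 11 isolated regions over 10 kb had a median score of 2.04 in the series list, against 1.52 for all 281.

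Score did not keep rising with isolation. Regions whose nearer neighbour was 20 to 30 kb away (111) had a median score of 1.67, those at 30 to 50 kb (104) one of 1.45, and those at 50 kb or more (66) one of 1.25. Each of these classes had wide quartiles, 0.70 to 2.45 in the first and 0.71 to 2.30 in the last. Regions with a neighbour at 10 to 20 kb (282), outside the set, had a median of 1.36, and those with one at under 0.5 kb (542) a median of 1.10. The median width was 3077 bp at under 0.5 kb, 3173 bp at 0.5 to 1 kb, 3133 bp at 1 to 2 kb, 2385 bp at 10 to 20 kb, 2286 bp at 20 to 30 kb and 2218 bp at 50 kb or more. The 378 non-isolated regions at the far ends of the empty stretches scored 1.36 and measured 2788 bp at the median.

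**Figure D3:**
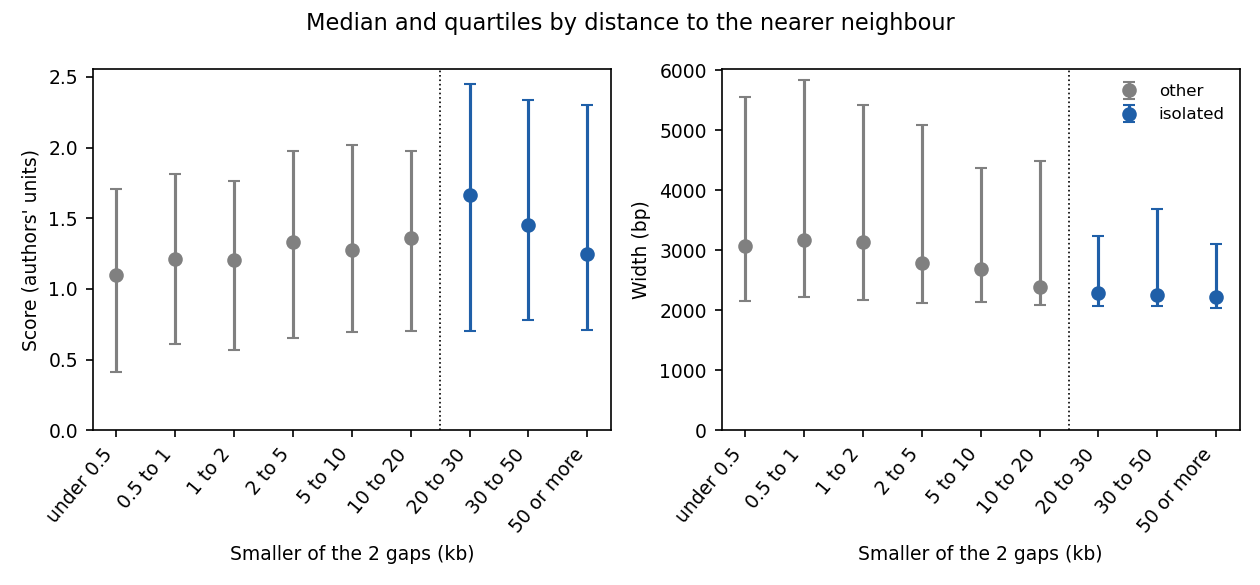
Median score (left, authors' units) and median width (right, bp) of regions by the smaller of their 2 gaps in kb; bars span the quartiles, grey marks other and blue isolated regions, and the dotted line marks the threshold of 20 kb. The median score is highest at 20 to 30 kb (1.67) and the median width falls from 3173 bp at 0.5 to 1 kb to 2218 bp at 50 kb or more.

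Most isolated regions were found in both replicates. A region of each replicate overlapped 249 of the 281 by at least 1 bp (88.6%, interval 84.3 to 92.1), while 7 were found in 1 replicate and 25 (8.90%) in neither. Over all 2958 regions of the 3 arms, 86.7% were found in both, so the isolated regions were close to that background. The lists of both replicates came from the libraries behind the series list, so this overlap is no independent recovery.

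Support depended on width in both groups. All 69 isolated regions wider than 3500 bp, and 126 of the 127 of more than 2000 and up to 2500 bp, were in both replicates. Of the isolated regions of more than 1300 and up to 2000 bp, 25 of 36 were in both (69.4%, interval 51.9 to 83.7), against 142 of 330 others (43.0%, interval 37.6 to 48.6). The narrowest region in either replicate list measured 1301 bp, and 20 isolated regions of the series list were narrower than that. None of these 20 was in both replicates, and their absence does not show that signal was missing there. Without them, 95.4% of isolated (interval 92.1 to 97.6) and 90.9% of other regions (interval 89.7 to 91.9) were in both, a setting added after the values were seen. Split by score, the order changed. In the lowest quartile of scores, 73.2% of isolated and 53.9% of other regions were in both. From 0.60 to 1.26 the shares were 85.2% (interval 73.8 to 93.0) and 97.2% (interval 95.7 to 98.3). From 1.26 to 1.92 they were 96.6% and 97.6%, and in the highest quartile 94.3% and 98.1%.

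**Figure D4:**
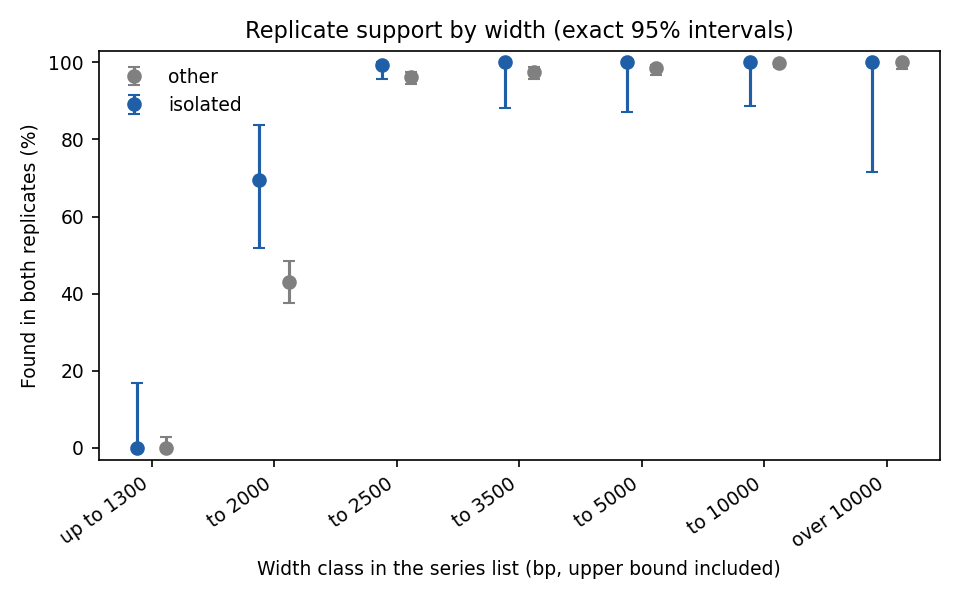
Share of regions found in both replicates (vertical axis, %) by width class in the series list (horizontal axis, bp), for isolated (blue) and other (grey) regions; bars are exact 95% intervals for counting error. The share is 0 up to 1300 bp, 69.4% for isolated and 43.0% for other regions up to 2000 bp, and above 96% in the wider classes.

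Isolation itself was found in the replicate lists at most places. The same gap rule gave 277 isolated regions in replicate 1 and 281 in replicate 2. Of the 281 isolated series regions, 235 (83.6%) matched an isolated region of replicate 1 and 243 (86.5%) one of replicate 2, a mean of 85.1 ± 2.0% (SD, n = 2). Both lists had them isolated at 229 places (81.5%). Among those found in a replicate at all, 93.3% were isolated in replicate 1 and 96.0% in replicate 2. In the other direction, 42 isolated regions of replicate 1 and 38 of replicate 2 matched no isolated series region, and 37 and 32 of these overlapped a series region that was not isolated.

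The surroundings were nearly free of regions in the replicate lists, which the choice of members favours. Members had empty flanks in the series list by the rule, and that list rests on the same libraries. Within 20 kb of an isolated region, outside the region itself, replicate 1 had a further enriched region at 7 of the 281 places and replicate 2 at 5. The authors also typed 55 regions of the 3 arms in the series list as depleted. At 10 isolated regions such a depleted region lay within 20 kb. No depleted region of either replicate lay within that distance of any of the 281. Those lists were short, however, with 17 depleted regions in all of replicate 1 and 21 in all of replicate 2. The whole series list held 91.

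Scores and edges were close between replicates. A single region in each replicate matched 236 of the isolated regions, and 13 more were in both with several regions in at least 1. Over the 236, the score ran from 0.04 to 4.14 in replicate 1, and the median was 1.64 in each replicate. Replicate 2 minus replicate 1 averaged -0.0013 with an SD of 0.11 over regions, and replicate 2 was higher in 120 of 236. Over the 2096 such pairs among other regions, the mean was 0.02 and the SD 0.12. Scores lay within 0.25 of each other in 225 of 236 isolated pairs (95.3%) and in 97.1% of the others. Starts differed between replicates by a median of 14 bp and ends by 13 bp, against 27 and 26 bp among other regions. Their median widths were 2265 bp in replicate 1 and 2253 bp in replicate 2.

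**Figure D5:**
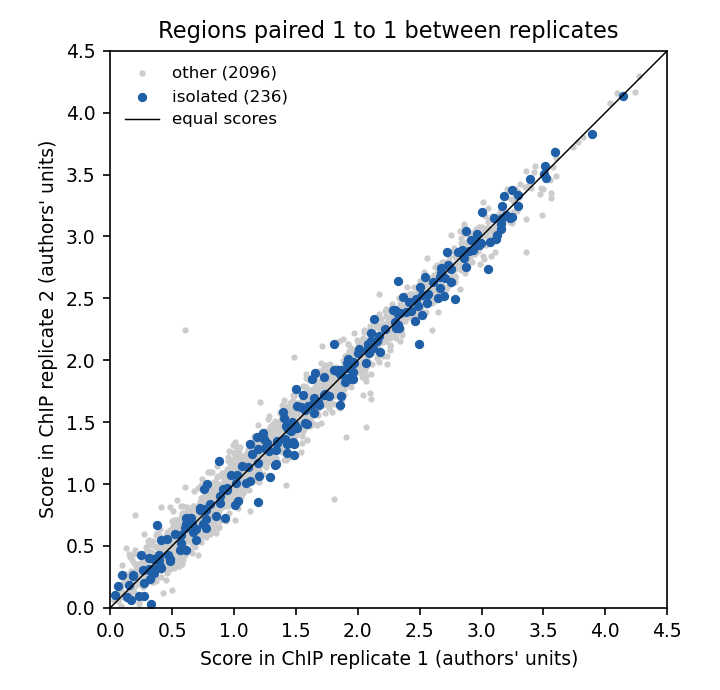
Score in ChIP replicate 1 (horizontal axis) against ChIP replicate 2 (vertical axis), in the authors' units, for regions with 1 match in each replicate; blue points are 236 isolated and grey points 2096 other regions, and the line marks equal scores. Isolated regions lie along the line over their whole range, with none farther from it than a difference of 0.36.

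Among the 236 isolated regions with 1 match in each replicate, the 5 largest differences in score were all on 2L. The region from 4224040 to 4230583 scored 2.49 in replicate 1 and 2.13 in replicate 2, and its neighbour from 4255382 to 4257540 scored 1.19 and 0.85. Both were lower in replicate 2. The region from 13329961 to 13332175 was higher there, with 1.81 and 2.13, as was that from 20309166 to 20312379, with 2.32 and 2.64. The region from 1419273 to 1421546, among the most isolated, scored 3.05 and 2.74. On 2L, 6 of 62 pairs were more than 0.25 apart, on 3L 4 of 92 and on 3R 1 of 82. The mean differences on the arms were -0.0072, -0.0014 and 0.0032, so the 2L differences went both ways. Their SD over isolated pairs was 0.13 on 2L, 0.11 on 3L and 0.11 on 3R. Over pairs of other regions the SD was 0.12, 0.12 and 0.11.

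Most isolated regions missing from a replicate were missing from both. The same held over all 2958 regions of the 3 arms, of which 239 were in neither replicate and 155 in 1. The 7 isolated regions found in 1 replicate, 3 in replicate 1 and 4 in replicate 2, were weak. Their scores ran from 0.0041 to 1.07 and their widths from 1398 to 2052 bp in the series list. The 25 found in neither had a median score of 0.80 and widths from 1001 to 1905 bp, and 6 of them scored above 2. The highest was on 3L from 408641 to 409641, with a score of 3.10. Next came 2L from 2294197 to 2295197 and 2L from 12934005 to 12935005, each with 2.81. These 3 were all exactly 1001 bp wide. The other two of the 5 leaders were on 3L from 23824540 to 23826444 (1905 bp, 2.64) and on 3L from 2112345 to 2113348 (1004 bp, 2.44). By comparison, the 214 other regions in neither replicate had a median score of 0.33.

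Each of the 3 arms carried isolated regions throughout. They numbered 77 on 2L, 104 on 3L and 100 on 3R, or 3.35, 4.24 and 3.58 per Mb. These were 8.77% (interval 6.98 to 10.8), 10.4% (8.60 to 12.5) and 9.23% (7.58 to 11.1) of the regions of each arm, and the intervals overlap. The median score was 1.36 on 2L, 1.69 on 3L and 1.46 on 3R, against 1.28, 1.18 and 1.30 for the other regions of those arms. The median smaller gap was 34.6, 34.8 and 34.0 kb. Isolated regions thus scored above the others at the median on every arm, by the most on 3L. Replicate 1 had 71, 105 and 101 isolated regions on these arms and replicate 2 had 71, 111 and 99.

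The numbers of isolated regions near the centromere differed by arm, but they were small and the difference was not tested. In the 2 Mb nearest the centromere there were 14 isolated and 44 other regions on 3L, 8 and 83 on 2L, and 5 and 87 on 3R. In the 2 Mb at the telomere end the numbers were 7 and 86 on 3L, 5 and 79 on 2L, and 5 and 65 on 3R. Over all 3 arms, 141 of the isolated regions (50.2%) and 48.1% of the others lay nearer the centromere than the telomere. Of 74 whole bins of 1 Mb, 2 held no isolated region, both on 2L, from 8000001 to 9000000 and from 16000001 to 17000000. The median bin held 4 and the fullest, on 3R from 17000001 to 18000000, held 8. Across the bins, isolated and other regions had a Spearman correlation of -0.41; a bin crowded with regions has less room for gaps of 20 kb.

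Many isolated regions followed one another, which the rule favours. Direct neighbours share 1 gap, so a gap of 20 kb or more counts for both. Of all 2955 gaps on the 3 arms, 792 were that long. Whether runs exceeded what this gives was not tested. Of the 281, 158 had another isolated region as a direct neighbour, in 47 runs of 2, 14 of 3, 4 of 4 and 1 of 6, and 123 stood between non-isolated neighbours. The run of 6, described because of its length, spanned 549.9 kb of 3L from 9960433 to 10510380. Its regions scored between 0.91 and 2.61 in the series list and all 6 were in both replicates. The first, from 9960433 to 9968878, was 8446 bp wide and scored 2.12 there. It matched 2 regions in replicate 1, the higher with 2.55, and 1 in replicate 2 with 2.15. The strongest lay from 10355097 to 10358274, with scores of 2.66 in replicate 1 and 2.67 in replicate 2, and the last, from 10508034 to 10510380, scored 2.52 and 2.53. Between them were regions from 10217167 to 10219305 (1.33 and 1.15), from 10283695 to 10286875 (1.57 and 1.60) and from 10455038 to 10457141 (1.01 and 0.83). Empty stretches of 50.9 to 248.3 kb separated the 6.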

How the data were processed

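The authors deposited 3 lists of regions, per the file headers in coordinates of FlyBase release 5, 1 per ChIP replicate and 1 for the series. Bowtie 0.12.7 was among the tools, per the submitters' processing notes; the region caller, its threshold, the control and how replicates were combined are not stated in the labels or headers. Each region has a score deposited by the authors, with no stated unit, above 0 where enriched. Per the labels' protocols, cells were fixed in 1.8% formaldehyde for 10 min and chromatin was held with antibody for 15 hours. Input samples were not used here.

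Enriched regions of 2L, 3L and 3R were sorted by position, the bases between neighbours were counted, and a region was isolated when both gaps were 20 kb or more. Regions matched when they overlapped by at least 1 bp; where several regions of a replicate matched, the highest score was taken. Quantiles, exact Clopper-Pearson intervals and Spearman correlations were computed with scipy 1.17.1, pandas 2.3.3 and numpy 2.4.6 under Python 3.11.15, and plots were drawn with matplotlib 3.10.9. The gap and overlap code was tested on simulated data. The members, and the lists described, were chosen with earlier results of these data known. Regions named are the 10 isolated regions with the highest mean replicate score, and 5 each of the widest, the most isolated, those just inside and just outside the threshold, those scoring highest with no replicate match, and those with the largest difference between replicates, with ties kept. The run of 6 and the band of widths were added after the values were seen. The available gene table follows release 6 and was not used for positions.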

Additional observations from a re-analysis of the deposited data

How the results depend on the processing

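With gaps of 10, 30 and 50 kb in place of 20 kb, the number of isolated regions (281) was 563, 170 and 66. Their median score (1.52) was then 1.43, 1.33 and 1.25, and their median width (2263 bp) was 2290, 2245 and 2218 bp. The median score of isolated regions at 50 kb was thus close to that of the non-isolated regions of the main comparison (1.25). At 50 kb, 89.4% were isolated in the replicate lists too, against 85.1% at 20 kb. Counting depleted regions as neighbours gave a median width of 2275 bp. The isolated regions whose score reached the median of the 3 arms had medians of 2.23 and 2394 bp; 95.1% of them were in both replicates (88.6% in the main comparison) and 89.3% were isolated in the replicate lists. Isolated regions at least as wide as the narrowest replicate region, a setting chosen after seeing the data, gave 1.57, 2292 bp, 95.4% and 91.6% for these 4 values. Each replicate list alone gave median scores of 1.51 to 1.55 and median widths of 2263 to 2276 bp. The number was 393 with the rule applied only to regions at or above the median score, 299 with regions under 500 bp apart merged, 271 with depleted regions counted as neighbours and 283 with the first and last region of an arm judged by 1 gap. A number counted as moved past a factor of 1.5, a share in both replicates outside its interval, a difference between replicates past its SD over regions, and other values past the SD between replicates; 30 of the 51 alternative values did not move by these limits. Some movements follow from the settings themselves. A longer gap can only lower the number, and a floor on score can only raise the median score. Leaving out narrow regions, none of which was in both replicates, can only raise that share. The cause of the other movements was not tested. No paired analysis was possible because no values of the inputs, the only samples with matching replicate numbers, were at hand. Without read counts, how depth limits the weak or narrow regions is unknown.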

Other observations

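Some isolated regions carried a score that another region of the series list had to every deposited digit. There were 10 such regions among the 281 (3.56%, exact 95% interval 1.72 to 6.45) and 79 among the 2677 others (2.95%, interval 2.34 to 3.66). Of the 10, 8 were found in neither replicate and 1 in both, and their median width was 1099 bp. All 5 of the highest-scoring isolated regions found in neither replicate were among them, including the pair on 2L with scores of 2.81. The region found in both replicates lay on 3R from 22623719 to 22625916, was 2198 bp wide and scored 1.90 in replicate 1 and 1.83 in replicate 2. This count was made after the values were seen, and why scores repeat was not tested.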
